A study of Mus musculus with 4 samples.

Results

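The genes described here are the secreted Wnt ligands, their receptors and the secreted proteins that tune them, measured by RNA-Seq in whole mammary glands of mice with and without miR-21. Members were the gene names of the Wnt, Fzd, Sfrp, Dkk, Lgr, Rspo, Axin and Lrp5/Lrp6 families in the deposited table, with 1 row for each name. This gave 48 genes out of 22479 distinct names, or 49 of the 22483 loci that carried a name. They comprised 19 Wnt ligands, 10 Frizzled receptors, 2 Lrp co-receptors, 4 Sfrp decoys, 4 Dkk inhibitors, 4 R-spondins, 3 Lgr receptors and 2 Axins. The Wnt, Frizzled and R-spondin families were complete, and the mouse gene that corresponds to Sfrp3 is listed as *Frzb* and was counted with the other pathway genes.

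The samples were mammary glands of 2 wild-type (miR-21+/+) and 2 knockout (miR-21-/-) virgin mice, all 2 months old and all on a mixed 129SV::FVB/N::C57BL/6 background. No animal was treated, and nothing in the sources used here says whether the genotypes were littermates. Each value is in FPKM, the number of sequenced fragments assigned to a gene after correction for the length of the gene and the size of the library. Each genotype has 1 FPKM value in the table, made from its 2 mice together. How far the mice of a genotype differ cannot be seen, so no difference below has a replicate check and no p-value is given. A log2 ratio is always miR-21-/- over miR-21+/+, from the FPKM values as deposited. A member was called higher or lower at a ratio of 1.5-fold or more, if the mean of both values was at least 1 FPKM.

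Wnt ligands are lipid-modified secreted proteins that act over short distances. They bind a Frizzled receptor together with Lrp5 or Lrp6, which disables a destruction complex built on the Axin scaffolds and lets beta-catenin accumulate and act with Tcf/Lef factors in the nucleus. Other Wnt ligands signal through Frizzled and Ror or Ryk receptors without beta-catenin. Sfrp proteins capture the ligand, Dkk proteins block the Lrp co-receptors, and R-spondins bound to Lgr receptors keep Frizzled on the cell surface. In the mammary gland these signals are known for their part in placode formation, side branching and the upkeep of basal stem cells.

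The facts of the whole table that bear on these genes are few. The locus that contains the deleted microRNA, listed as Mir21 together with its host gene *Vmp1*, was at 42.5 FPKM in miR-21+/+ and 68.2 FPKM in miR-21-/- glands. Mature microRNAs have no poly(A) tail and are absent from such libraries, so this value is no check of the genotype labels. Markers of the labelled tissue were abundant in both genotypes: the luminal keratin *Krt8* was at 119 and 197 FPKM, the myoepithelial actin *Acta2* at 222 and 341 FPKM and the adipocyte fatty acid carrier *Fabp4* at 7677 and 5523 FPKM. Among 13305 named loci with a mean of at least 1 FPKM, the median log2 ratio was −0.03, the middle 50% lay between −0.17 and 0.11, and 90% lay between −0.64 and 0.59. The number of reads in each library is unknown. Among low genes with a single annotated transcript, the commonest product of FPKM and transcript length was 20.5 in wild-type and 25.03 in knockout glands, and this was taken as the rough worth of 1 read where read numbers are given below.

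The deleted microRNA itself can bind a messenger through its seed, bases 2 to 8, so the annotated 3′ UTR of every member was searched for the match. The sequences are shown so that the match to the deleted microRNA can be seen. A match is a description of the letters, and binding was not tested. The first is mature miR-21 from RefSeq, with the seed in capitals, and the others are the 3 members with a full match, an 8mer that pairs with the seed and has an A opposite base 1, in capitals and read 5′ to 3′ along the transcript.
miR-21-5p: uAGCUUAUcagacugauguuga
Dkk2: gaacaaaactcATAAGCTAattt
Rspo2: gtaagtataggATAAGCTAgttt
Rspo3: cataattatcaATAAGCTAtaag

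In mm9 the match of *Dkk2* lies on the plus strand at chr3:131842947-131842954, that of *Rspo2* on the minus strand at chr15:42853248-42853255 and that of *Rspo3* on the minus strand at chr10:29173663-29173670. All 48 members had an annotated 3′ UTR. A match to bases 2 to 8 was found in these 3 of the 48 members. None of the 33 members with a mean of at least 1 FPKM held one. Of all 12978 genes at that level with a 3′ UTR, 6.88% held one. Such a share of 33 genes is only a few genes, so no lack of matches can be read from this. *Dkk2* (an inhibitor of the Lrp co-receptors) was at 1.13 FPKM in miR-21+/+ and 0.858 FPKM in miR-21-/- glands. *Rspo2* was at 0.0683 and 0.1502 FPKM, and *Rspo3* at 0.154 and 0.0884 FPKM. Only *Rspo2* of these 3 was higher without the microRNA, at a level of about 11 and 20 reads. The shorter 7mer-A1 match, which leaves base 8 unpaired, occurred in *Fzd7*, *Fzd10*, *Lgr4*, *Lrp6*, *Wnt3a* and *Dkk4*, and of these *Fzd10* alone was called. With this type included, 4 of the 33 members held a match, 12.1% against 11.1% of all genes, so the share of members was near the background. None of the other called members, *Wnt2*, *Wnt5b*, *Rspo1* and *Rspo4*, held a match of any of these types in its longest annotated 3′ UTR.

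Of the 48 members, 33 reached a mean of 1 FPKM, 18 reached 5 FPKM and 9 reached 10 FPKM. As deposited, the difference between genotypes was small for most of them: 28 of the 33 lay within 1.5-fold, and 21 of these had a larger value less than 25% above the smaller one. *Rspo1*, *Wnt5b* and *Fzd10* were called higher without miR-21, 3 of 33 or 9.09% against 5.04% of all named loci. *Wnt2* and *Rspo4* were called lower, 2 of 33 or 6.06% against 5.84% of all named loci. At 2-fold or more 2 members were higher and 2 lower, 6.06% of the 33 in each direction, against 1.72% of all named loci higher and 2.16% lower. These 4 members were 12.1% of the 33, against 3.89% of all named loci in either direction. At 1.5-fold the share in either direction was 15.2%, against 10.9%. The median log2 ratio of the 33 members was 0.03, with 19 above 0 and 14 below it. Scaling both columns to equal sums over all loci would lower every log2 ratio by 0.63, leave *Rspo1* as the only member called higher and raise the members called lower from 2 to 18, with a median of −0.60. The sums over all loci were 759295 FPKM in miR-21+/+ and 1175600 FPKM in miR-21-/- glands, against 380567 and 355385 FPKM over named loci alone. Scaling by the sum or the median of the named loci raised every log2 ratio by 0.10 or 0.03. Both left the same members called. That most members differed little therefore holds for the values as deposited and under these 2 scalings, but not under equal sums over all loci.

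**Figure D1:**
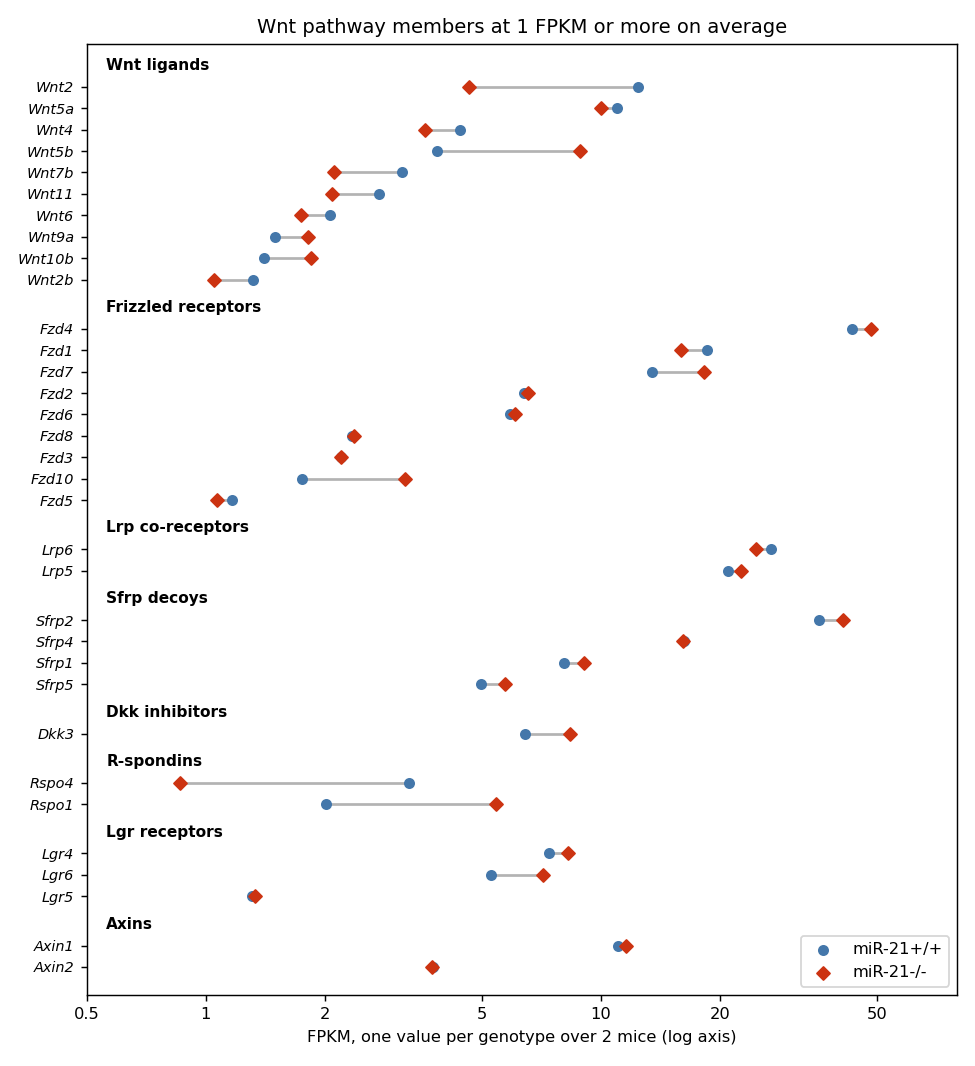
FPKM in miR-21+/+ (circles) and miR-21-/- glands (diamonds) for the 33 members with a mean of at least 1 FPKM, grouped by role, on a log axis; each point is the single deposited value over 2 mice and has no error bar. The long lines belong to *Wnt2* and *Rspo4*, lower in miR-21-/- glands, and to *Wnt5b*, *Rspo1* and *Fzd10*, higher in miR-21-/- glands.

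Among the ligands, the order of *Wnt2* and *Wnt5b* was reversed between genotypes: *Wnt2* ranked 1 in wild-type and 3 in knockout glands, and *Wnt5b* ranked 4 and 2. *Wnt2*, a ligand that acts through beta-catenin and is needed for lung and placental vessel formation, was the most abundant Wnt messenger in miR-21+/+ glands at 12.4 FPKM and stood at 4.63 FPKM in miR-21-/- glands. Its log2 ratio was −1.43, a 2.69-fold difference, and 163 of the 13305 named loci were as far or further in that direction. *Wnt5b*, a close relative of *Wnt5a* that acts mostly without beta-catenin, was at 3.85 FPKM in miR-21+/+ and 8.85 FPKM in miR-21-/- glands. Its log2 ratio was 1.20, a 2.30-fold difference that 143 named loci matched or exceeded. Within miR-21+/+ glands *Wnt2* was 3.23 times as abundant as *Wnt5b*, and within miR-21-/- glands it was 0.523 times as abundant. These ratios within a column do not depend on how the columns are scaled. The 2 genes lie far apart on chromosome 6 of mm9, *Wnt2* at chr6:17938940-17980585 and *Wnt5b* at chr6:119382549-119494336, both on the minus strand. The values correspond to roughly 1368 and 417 reads for *Wnt2* and 440 and 827 reads for *Wnt5b*.

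*Wnt5a*, a ligand that restrains ductal growth downstream of TGF-beta, was at 10.98 FPKM in miR-21+/+ and 9.99 FPKM in miR-21-/- glands. The authors' run marked this locus as failed, so its value carries a doubt of its own. With *Wnt2* lower, *Wnt5a* was the most abundant ligand in miR-21-/- glands, at 25.5% of the summed ligand FPKM against 24.2% in miR-21+/+ glands. *Wnt2* made up 27.4% of that sum in wild-type and 11.8% in knockout glands, and *Wnt5b* 8.49% and 22.6%. The sum over all 19 ligands was 45.4 FPKM in miR-21+/+ and 39.2 FPKM in miR-21-/- glands, a log2 ratio of −0.21 as deposited and −0.84 when scaled to equal sums over all loci. The shares do not depend on the scaling.

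**Figure D2:**
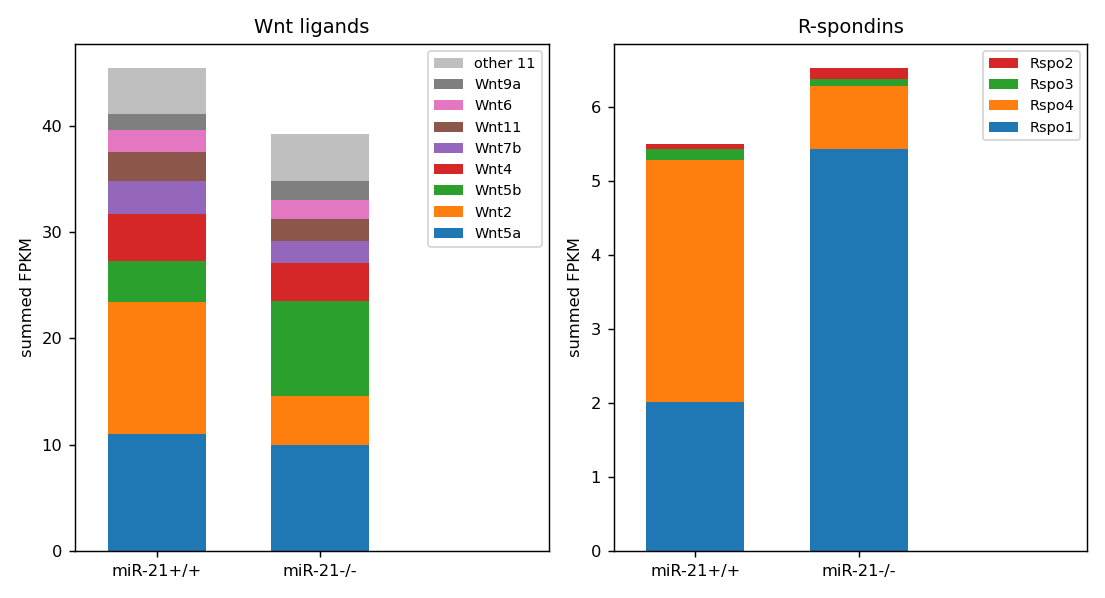
Summed FPKM of the Wnt ligands (left) and R-spondins (right) in each genotype, stacked by gene, with a single deposited value per gene and genotype and no error bars. The *Wnt2* share is 27.4% in wild-type and 11.8% in knockout glands, and the *Rspo1* share is 36.7% and 83.2%.

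The other ligands at 1 FPKM or more differed by less than 1.5-fold. *Wnt4*, the ligand through which progesterone drives side branching, was at 4.40 FPKM in miR-21+/+ and 3.58 FPKM in miR-21-/- glands, a log2 ratio of −0.30. *Wnt7b*, an epithelial ligand, was at 3.14 and 2.11 FPKM, and its log2 ratio of −0.57 fell just short of the limit for a call. *Wnt11*, which acts on cell movement and polarity, was at 2.75 and 2.09 FPKM, and *Wnt6* at 2.07 and 1.74 FPKM. *Wnt2b*, the nearest relative of *Wnt2*, was at 1.32 and 1.05 FPKM, so it too was lower but by a log2 ratio of −0.33 alone. *Wnt10b*, a ligand of the early mammary placode that restrains fat cell formation, was at 1.40 and 1.84 FPKM, and *Wnt9a* at 1.497 and 1.81 FPKM. In all, 7 of the 10 ligands at this level were below 0 on the log2 ratio scale and 3 were above it, with a median of −0.27.

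The remaining 9 ligands were under 1 FPKM. *Wnt10a* was at 0.482 FPKM in miR-21+/+ and 0.508 FPKM in miR-21-/- glands. *Wnt16* was at 0.244 and 0.570 FPKM, or about 42 and 81 reads. *Wnt9b* was at 0.605 and 0.165 FPKM, or about 133 and 30 reads, a log2 ratio of −1.87 that was not called because of the low level. The other 6, *Wnt1*, *Wnt3*, *Wnt3a*, *Wnt7a*, *Wnt8a* and *Wnt8b*, were below 0.2 FPKM in both genotypes, which is about 10 reads or fewer, and *Wnt7a* was listed at 0 in miR-21-/- glands. *Wnt1*, the ligand first found through its activation by the mouse mammary tumour virus, was thus barely present in the normal gland, at 0.0605 and 0.0953 FPKM.

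Several Wnt genes stand next to each other in the genome, and both members of a pair had unlike levels. On chromosome 15, *Wnt10b* lies 11.7 kb from *Wnt1* and was the only one of these above 1 FPKM. On chromosome 11, *Wnt9a* was above 1 FPKM and its neighbour *Wnt3a*, 16.2 kb away, was at 0.0361 FPKM in miR-21+/+ and 0.00890 FPKM in miR-21-/- glands. *Wnt9b* and *Wnt3* on the same chromosome are 24.3 kb apart, and both were lower in miR-21-/- glands, *Wnt3* at 0.0408 and 0.0151 FPKM. *Wnt6* and *Wnt10a* on chromosome 1 are separated by 6.20 kb and share a single locus interval in the table, but each has its own value.

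As a sum, the Frizzled receptors were more abundant than the ligands, and 8 of the 9 at 1 FPKM or more were within 1.5-fold as deposited. The 1 receptor called was 11.1% of the 9, near the 10.9% of all named loci called in either direction. The sum of the Frizzled receptors was 95.2 FPKM in miR-21+/+ and 104 FPKM in miR-21-/- glands. *Fzd4*, a receptor for Norrin as well as for Wnt ligands and known from retinal vessels, led in both genotypes at 43.1 and 48.4 FPKM and made up 45.3% and 46.4% of the sum. *Fzd1* was at 18.6 FPKM in miR-21+/+ and 15.97 FPKM in miR-21-/- glands, whereas *Fzd7*, the receptor associated with mammary basal stem cells, was at 13.5 and 18.3 FPKM. The log2 ratio of *Fzd7* was 0.44, under the limit, and it put *Fzd7* above *Fzd1* in miR-21-/- glands. *Fzd2*, at 6.41 and 6.55 FPKM, and *Fzd6*, at 5.90 and 6.05 FPKM, were nearly level between genotypes, as were *Fzd8*, at 2.34 and 2.37 FPKM, and *Fzd3*, at 2.21 and 2.20 FPKM.

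*Fzd10* was the receptor that differed most. It was at 1.75 FPKM in miR-21+/+ and 3.20 FPKM in miR-21-/- glands, a log2 ratio of 0.87 or a 1.82-fold difference, from about 278 and 415 reads. There were 333 named loci at least as far in this direction. The gene is annotated at chr5:129106719-129109968 on the plus strand of mm9. *Fzd5* was at 1.17 and 1.07 FPKM, and a second row of that name at the same place, at 0.254 and 0.521 FPKM, was not used. Adding both rows would turn its log2 ratio from −0.13 to 0.16. *Fzd9* was at 0.268 and 0.311 FPKM.

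The co-receptors and the Axins were level. *Lrp6* was at 27.0 FPKM in miR-21+/+ and 24.7 FPKM in miR-21-/- glands and *Lrp5* at 21.0 and 22.7 FPKM, with log2 ratios of −0.13 and 0.11. *Axin1*, the constitutive scaffold of the destruction complex, was at 11.1 and 11.6 FPKM. *Axin2*, the scaffold that beta-catenin itself induces and the most used readout of the pathway, was at 3.75 FPKM in miR-21+/+ and 3.74 FPKM in miR-21-/- glands, a log2 ratio that rounds to −0.00. The unrounded value was −0.00449, from about 781 and 637 reads. *Lgr5*, which is both a target of the pathway and a receptor for R-spondins, was at 1.31 and 1.33 FPKM. Scaled to equal sums over all loci, *Axin2* and *Lgr5* would have log2 ratios of −0.64 and −0.61 and be called lower. The wider list of textbook target genes was not level throughout. Of 13 at 1 FPKM or more, 9 were within 1.5-fold, 3 were called lower and 1 higher. These calls were 23.1% and 7.69%, against 5.84% and 5.04% of all named loci, and the median log2 ratio of the 13 was −0.23. The 3 lower genes were *Tcf7*, *Lef1* and *Tnfrsf19*, and the higher one was *Wisp2*. *Tcf7* and *Lef1* are the same genes that are described below as nuclear factors, beside lymphocyte markers.

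**Figure D3:**
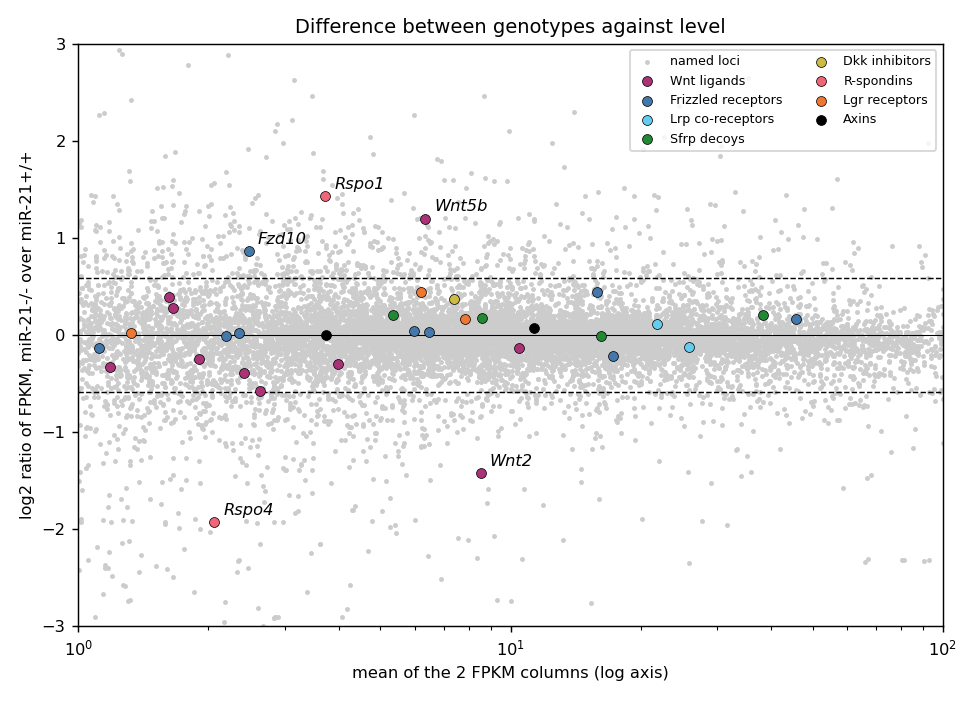
Log2 ratio of FPKM (miR-21-/- over miR-21+/+) against the mean of both FPKM columns (log axis) for named loci (grey) and the 33 members at 1 FPKM or more (coloured by role); dashed lines mark 1.5-fold, and points are single values without error bars. Only *Wnt2*, *Wnt5b*, *Fzd10*, *Rspo1* and *Rspo4* among the members lie beyond the dashed lines. A further 578 named loci, beyond a log2 ratio of 3 in either direction, above 100 FPKM or at 0 in a column, are not drawn.

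As deposited, the R-spondins held the largest difference in each direction among the 33 members. With 1 FPKM added to both values, *Wnt2* at −1.25 was further below 0 than *Rspo4* at −1.20, while *Rspo1* stayed the highest. *Rspo1*, known from ovarian development and as a mammary hormone-dependent signal that works together with *Wnt4*, was at 2.02 FPKM in miR-21+/+ and 5.44 FPKM in miR-21-/- glands. Its log2 ratio was 1.43, a 2.69-fold difference from about 181 and 398 reads, and 89 named loci were at least as far in this direction. *Rspo4*, whose human counterpart is required for nail growth, was at 3.27 FPKM in miR-21+/+ and 0.858 FPKM in miR-21-/- glands. Its log2 ratio was −1.93, a 3.81-fold difference from about 378 and 81 reads, with 97 named loci as far or further. *Rspo4* passed the minimum level through its miR-21+/+ value alone. In miR-21+/+ glands *Rspo4* was 1.62 times as abundant as *Rspo1*, and in miR-21-/- glands 0.158 times. *Rspo1* thus supplied 36.7% of the summed R-spondin FPKM in wild-type and 83.2% in knockout glands, while the sum itself was 5.51 and 6.53 FPKM. *Rspo1* lies at chr4:124663674-124686343 and *Rspo4* at chr2:151668663-151700404, both on the plus strand of mm9.

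Their receptors differed less. *Lgr4* was at 7.39 FPKM in miR-21+/+ and 8.27 FPKM in miR-21-/- glands. *Lgr6*, which marks progenitor cells in skin and mammary epithelium, was at 5.27 and 7.14 FPKM, a log2 ratio of 0.44. The 3 Lgr genes were each above 0 on the log2 ratio scale as deposited, and each fell below 0 when both columns were scaled to equal sums over all loci. *Rnf43* and *Znrf3*, the ubiquitin ligases that R-spondins draw away from Frizzled, were at 2.22 and 2.90 FPKM and at 2.08 and 2.10 FPKM.

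Levels of the secreted inhibitors ran from among the highest of the members, for Sfrp genes, to 0, for a Dkk gene. *Sfrp2* led at 35.6 FPKM in miR-21+/+ and 41.0 FPKM in miR-21-/- glands, followed by *Sfrp4* at 16.3 and 16.1 FPKM, *Sfrp1* at 8.07 and 9.09 FPKM and the fat tissue decoy *Sfrp5* at 4.97 and 5.73 FPKM. None reached 1.5-fold, and their log2 ratios ran from −0.01 to 0.21 as deposited; all 4 were below 0 when scaled to equal sums over all loci. Together they amounted to 64.9 FPKM in miR-21+/+ and 72.0 FPKM in miR-21-/- glands, above the sum of all ligands in both. *Dkk3*, a divergent family member that does not act as a typical Lrp blocker, was at 6.44 and 8.35 FPKM, a log2 ratio of 0.37. The mean of *Dkk2*, at 0.993 FPKM, lay just under the minimum level. *Dkk1*, the classical Lrp blocker, was at 0.0359 and 0.0680 FPKM, and *Dkk4* was listed at 0 in both genotypes. *Frzb* was at 1.34 FPKM in miR-21+/+ and 0.645 FPKM in miR-21-/- glands, with a mean just under 1 FPKM and a log2 ratio of −1.06.

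The other genes of the pathway were taken from lists of ligand processing, further modulators, other receptors, signal transduction, nuclear factors and target genes. Of 83 listed genes, 81 were in the table and 73 had a mean of at least 1 FPKM. Of these 73, 4 were called higher and 4 lower, or 5.48% in each direction, and their median log2 ratio was 0.00. These shares lie near the background of 5.04% higher and 5.84% lower over all named loci. Ligand processing was level: *Wls*, the carrier that brings Wnt proteins to the cell surface, was at 53.7 and 50.5 FPKM, and *Porcn*, the enzyme that attaches their lipid, at 6.59 and 6.23 FPKM. Beta-catenin (*Ctnnb1*) was at 150 FPKM in miR-21+/+ and 167 FPKM in miR-21-/- glands.

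The genes called higher were *Wisp2*, a matrix-associated target at 2.92 and 7.68 FPKM, *Dkkl1*, a Dkk-related secreted protein at 5.84 and 11.9 FPKM, *Dact2*, an inhibitor that binds Dishevelled at 4.73 and 7.56 FPKM, and *Apc*, a destruction complex subunit at 7.13 and 10.8 FPKM. The authors' run marked the *Apc* locus as failed. The genes called lower were the nuclear factors *Tcf7* and *Lef1*, the heparan sulphate carrier *Sdc1* and the receptor gene *Tnfrsf19*. *Tcf7* was at 13.6 FPKM in miR-21+/+ and 4.09 FPKM in miR-21-/- glands, a log2 ratio of −1.73, and *Lef1* at 2.54 and 0.488 FPKM, a log2 ratio of −2.38. *Sdc1* was at 57.6 and 30.8 FPKM and *Tnfrsf19* at 1.70 and 0.951 FPKM. *Lef1* and *Tnfrsf19* passed the minimum level through their miR-21+/+ values alone. The other Tcf genes did not share this difference: *Tcf7l1* was at 14.5 FPKM in both genotypes, and *Tcf7l2*, whose locus was marked as failed, at 10.5 and 14.0 FPKM.

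*Tcf7* and *Lef1* are also known as T lymphocyte factors, and lymphocyte markers moved with them. Of the 11 B and T lymphocyte markers, all were lower in miR-21-/- glands and 10 were called, with a median log2 ratio of −2.22. Their summed level was 136 FPKM in miR-21+/+ and 61.3 FPKM in miR-21-/- glands, and none was listed at 0. The locus with the largest value, *Cd79a*, is merged with *Arhgef1* and was the one not called. Without it the sums were 65.6 and 13.0 FPKM, a log2 ratio of −2.34 in place of −1.15. Among lymph node vessel and stroma markers, 3 of the 4 at 1 FPKM or more were called lower and 1 was called higher, and a further one under 1 FPKM, *Chst4*, was listed at 0 in miR-21-/- glands. In whole tissue, fewer cells of a type and less RNA per cell cannot be told apart. The part of lymphocytes in the values of *Tcf7* and *Lef1* was not tested.

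Marker levels of other cell types also differed between the pooled samples, as the plot of marker lists shows. Of 10 basal and myoepithelial markers, all were above 0 and 7 were called higher, with a summed level of 471 FPKM in miR-21+/+ and 769 FPKM in miR-21-/- glands. Of 14 luminal markers 11 were above 0, with 5 called higher and 1 lower, and their sum was 819 and 1087 FPKM. The median log2 ratio was 0.70 for the basal list and 0.48 for the luminal list, while those of *Wnt5b*, *Fzd10* and *Rspo1* were 1.20, 0.87 and 1.43. Single markers, picked here after their values were seen, were further above 0 than all 3 members. At 1 FPKM or more they were *Oxtr* of the basal list at 1.47 and *Pgr* of the luminal list at 2.30. The others were *Mb* and *Myh1* of the muscle list at 1.86 and 1.47 and *Madcam1* of the lymph node list at 1.44. Under 1 FPKM, *Krt71* of the skin list was at 3.21. The luminal list was split, and its 3 markers below 0 were *Cited1* at −1.91, *Esr1* at −0.50 and *Foxa1* at −0.35. Skeletal muscle markers were higher as well, 11 of 12 called, with sums of 1409 and 2363 FPKM. The part of epithelial or muscle content in the 3 higher members was not tested.

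**Figure D4:**
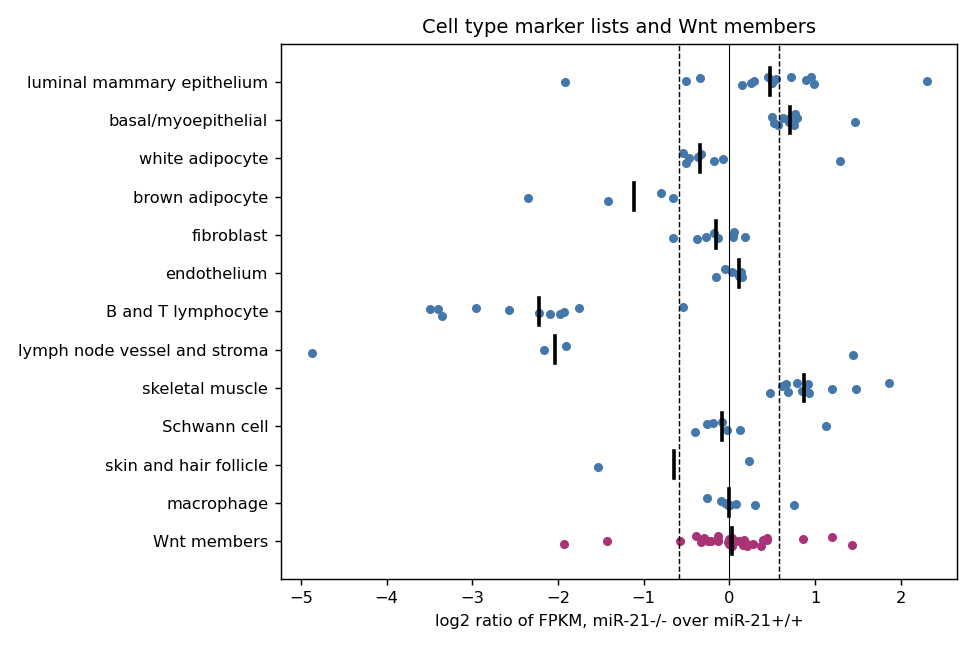
Log2 ratio of FPKM (miR-21-/- over miR-21+/+) for the genes of each marker list and for the Wnt members, all with a mean of at least 1 FPKM; each dot is a gene, black bars are medians and dashed lines mark 1.5-fold. Lymphocyte and brown adipocyte lists lie below 0 and basal and skeletal muscle lists above it, while the Wnt members centre at 0.03.

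On the other side, all 4 brown adipocyte markers at 1 FPKM or more were called lower, with sums of 243 FPKM in miR-21+/+ and 119 FPKM in miR-21-/- glands over the 5 listed genes. White adipocyte markers were below 0 in 7 of 8 cases with a median log2 ratio of −0.34, and the eighth was called higher, and fibroblast markers had a median of −0.16 with 1 of 8 called lower. Of the skin and hair follicle markers only 2 of 6 reached 1 FPKM, and 1 of these, *Krt10*, was called lower at 5.70 and 1.98 FPKM, a log2 ratio of −1.53. *Sbsn*, the most abundant of the list, was at 18.9 and 22.1 FPKM, a log2 ratio of 0.23. Of the 4 under 1 FPKM, *Krt1*, at 0.653 and 0.0688 FPKM, and *Lor*, at 1.16 and 0.115 FPKM, were lower in miR-21-/- glands. Their log2 ratios were −3.25 and −3.33, from about 78 and 7 reads for *Krt1* and about 100 and 8 reads for *Lor*. By contrast, *Krt71*, at 0.0358 and 0.332 FPKM or about 4 and 29 reads, was higher. *Krt25*, at 0.0280 and 0.0430 FPKM, had about 3 reads in each genotype, so no direction can be read from it. The skin list was split in direction, with *Sbsn* and *Krt71* above 0 and *Krt10*, *Krt1* and *Lor* below it. The log2 ratios of *Wnt2* and *Rspo4*, −1.43 and −1.93, were further below 0 than every fibroblast, white adipocyte and endothelial marker. They were not further below 0 than every brown adipocyte, lymphocyte, lymph node or skin marker. Of the skin markers, *Krt10* was further below 0 than *Wnt2*, and *Krt1* and *Lor* were further below 0 than both members. Luminal *Cited1*, at −1.91, and lymph node *Cxcl13*, at −1.90, were further below 0 than *Wnt2* but not than *Rspo4*. Lymph node *Glycam1*, at −4.88, and *Ccl19*, at −2.16, were further below 0 than both, whereas lymph node *Madcam1* was at 1.44. Endothelial, Schwann cell and macrophage lists had medians of 0.11, −0.09 and −0.01. The part of these cell types in the lower values of *Wnt2* and *Rspo4* was not tested.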

How the data were processed

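Poly(A) RNA of 4 mammary glands was sequenced as single-end reads on a HiSeq 2000. Per the labels and the study's methods, the authors used CASAVA and TopHat, aligned to mm9, and estimated FPKM with Cufflinks; versions and gene annotation are not given in the sources used here. The deposited FPKM table has 1 value per genotype over 2 mice. It also holds the authors' own fold change, test statistic, p-value, q-value and call, which were not used; a status word (passed, failed or untested in their run) served only as a flag.

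Each gene name was given the row with the highest mean FPKM, and plain log2 ratios were computed, without a pseudocount. Loci with a mean of at least 1 FPKM were compared at a limit of 1.5-fold. With a single value per genotype no test was possible, and the share of all named loci past the same limit is given as background. The members and lists were chosen with earlier results of these data known. Every member with a mean of at least 1 FPKM was named with its values, and of the other pathway genes those past the limit were named, while further pathway and marker genes named as context were chosen after their values were seen.

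Table starts count from 0, since 7510 annotated gene starts matched after adding 1 and 436 as printed. Coordinates and 3′ UTRs (the longest of each gene) came from the GENCODE annotation and genome of mm9, and the miR-21 sequence from RefSeq (GRCm38.p6). Approximate read numbers are FPKM times the longest annotated transcript, divided by the commonest product among low genes (744 and 709 genes, of which 10.5% and 10.2% fell within a window of 1 unit); this is an estimate, and intervals were not computed. The alternatives tried were adding 0.1 or 1 FPKM before the ratio, changed minimums and fold limits, 3 scalings, summed rows, merged or flagged loci left out, and other seed match types. Calculations used Python 3.11.15, numpy 2.4.6, pandas 2.3.3 and pysam 0.24.0, were tested on simulated data, and were plotted with matplotlib 3.10.9.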

Additional observations from a re-analysis of the deposited data

How the results depend on the processing

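No paired analysis was possible because both mice of a genotype were combined before deposit, and leaving out each mouse in turn could not be run for the same reason. Depth per mouse is unknown. The same 3 higher and 2 lower members were called with pseudocounts of 0.1 and 1 and with a minimum of 0.5 FPKM. Scaling by the sum or the median of the named loci also called them. So did summed rows and leaving out merged or flagged loci, but these could not remove a call. No called member had a second row, a merged locus or a flag. With a minimum of 5 FPKM, 1 member was called higher and 1 lower (*Wnt5b* and *Wnt2*), with a median log2 ratio of 0.14. Without a minimum the counts were 8 and 6, and at a limit of 25% they were 7 and 5. The share of all named loci was not computed at these settings or under equal sums over all loci. Nothing particular to the members can therefore be read from the counts there. Scaling to equal sums over all loci gave 1 higher (*Rspo1*) and 18 lower, with a median of −0.60, by its shift of −0.63 for every gene. For the other pathway genes it gave 1 higher and 41 lower, with a median of −0.63. Their counts were 2 higher with a pseudocount of 1, 2 lower with a minimum of 5 FPKM, 2 and 2 at 2-fold, and 10 and 9 at a limit of 25%. Counting 7mer-A1 matches raised the members with a seed match from 3 to 9. The alternatives for other pathway genes, for flagged loci and for the summed ligand and lymphocyte marker levels were chosen after seeing the data.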
